A study of Mus musculus with 16 samples.

Results

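The complement system was described here through 9 genes: C1qa, C1qb, C1qc, C4b, C3, Cfb, Serping1, C3ar1 and C5ar1. They were chosen by symbol, as components and receptors of complement, and all 9 were found among the 21878 mRNAs of the deposited tables. RNA-seq was performed on cells labelled as brain microglia, with 1 library from each of 8 EAE mice and 8 PBS-treated mice. All mice were wild-type female C57BL/6 animals, 8 weeks old. EAE, experimental autoimmune encephalomyelitis, is a mouse model of multiple sclerosis. It was induced with the myelin peptide MOG35-55 in complete Freund's adjuvant and with pertussis toxin on days 0, 2 and 7. The PBS-treated mice were injected with PBS on the same schedule, so that peptide, adjuvant and toxin differed together between the groups and their effects cannot be told apart. In the treatment field of the labels the last MOG residue runs from 55 in EAE 1 to 62 in EAE 8. Brains were taken at the peak of disease, 14 days after induction, and cells were gated as CD11b+ and CD45int. The study's purpose was to compare gene expression between microglia of EAE mice and of control mice.

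Complement is a cascade of plasma and tissue proteins that tags targets for uptake and releases small peptides that attract and activate leukocytes. C1q, built from A, B and C chains, recognizes the target and starts the classical pathway, C4 is the next substrate, and C3 is the step where all pathways meet. Factor B (Cfb) drives the alternative pathway, C1 inhibitor (Serping1) blocks the C1 proteases, and C3ar1 and C5ar1 are the receptors of the released peptides C3a and C5a. In the brain, microglia are known as the main source of C1q, and C1q and C3 are known for marking synapses that microglia remove.

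On GRCm38 (GENCODE annotation), the 3 C1q genes lie side by side on the minus strand of chromosome 4 within 18675 bases, in the order C1qb (136880129 to 136886187), C1qc (136889804 to 136893065) and C1qa (136895917 to 136898803). C4b (34728380 to 34743882), Cfb (34856374 to 34862518) and C3 (57203970 to 57228136) are on chromosome 17, also on the minus strand. Serping1 is on chromosome 2 (84765387 to 84775444), C3ar1 on chromosome 6 (122847138 to 122856161) and C5ar1 on chromosome 7 (16246743 to 16259540). RefSeq promoter windows, from 250 bases before to 50 bases after the transcript start, were found for 5 of the 9 genes: C1qb, C1qc, C3ar1, C5ar1 and C3. Those of C1qb with C1qc and of C3ar1 with C5ar1 are printed because the members of each pair varied most closely together over the 16 libraries, with capitals marking AGGAAG or its reverse complement CTTCCT, a core shared by ETS-family sites. They are given 5′ to 3′ on the minus strand of GRCm38.p6, at chr4:136886151-136886450, chr4:136892865-136893164, chr6:122856108-122856407 and chr7:16259289-16259588, respectively.
C1qb: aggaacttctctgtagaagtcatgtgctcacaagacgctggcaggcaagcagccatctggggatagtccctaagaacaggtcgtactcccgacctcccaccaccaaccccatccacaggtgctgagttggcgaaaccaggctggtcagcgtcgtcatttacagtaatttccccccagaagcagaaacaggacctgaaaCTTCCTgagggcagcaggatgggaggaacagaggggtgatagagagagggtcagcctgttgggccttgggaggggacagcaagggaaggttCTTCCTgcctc
C1qc: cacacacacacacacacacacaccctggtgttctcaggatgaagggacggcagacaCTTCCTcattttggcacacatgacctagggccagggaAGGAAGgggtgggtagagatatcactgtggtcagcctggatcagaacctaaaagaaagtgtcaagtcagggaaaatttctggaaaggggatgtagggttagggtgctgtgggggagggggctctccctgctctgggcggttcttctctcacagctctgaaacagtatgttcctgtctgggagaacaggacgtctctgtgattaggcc
C3ar1: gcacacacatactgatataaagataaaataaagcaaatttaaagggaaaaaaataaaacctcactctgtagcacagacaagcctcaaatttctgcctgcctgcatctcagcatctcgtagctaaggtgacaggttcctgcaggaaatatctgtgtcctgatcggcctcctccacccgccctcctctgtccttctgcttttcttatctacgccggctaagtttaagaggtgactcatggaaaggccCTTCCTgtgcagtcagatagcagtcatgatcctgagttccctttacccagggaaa
C5ar1: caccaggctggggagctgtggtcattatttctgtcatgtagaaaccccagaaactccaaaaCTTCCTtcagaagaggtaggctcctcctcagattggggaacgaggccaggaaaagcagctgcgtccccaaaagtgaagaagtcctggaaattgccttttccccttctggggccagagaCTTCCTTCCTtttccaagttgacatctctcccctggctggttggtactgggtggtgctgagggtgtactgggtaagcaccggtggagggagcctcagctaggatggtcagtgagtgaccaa
The motif AGGAAG, searched on both strands, occurred 2 times in the C1qb window, 2 times in C1qc, 1 time in C3ar1, 3 times in C5ar1 and 0 times in C3. In C5ar1, 2 of the 3 matches overlap. Of all 32851 promoter windows of the same length, 35.4% held it, so that a match is common. TTGCNNAA, the letters of a C/EBP-type site, occurred in 10.8% of all windows and, among the 5, in C3 alone, 1 time. TTCNNNGAA, of the STAT type, occurred in 8.30% of all windows and in 0 of the 5. These matches describe letters and do not show binding.

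Total counts lay between 24587443 and 30244215 in the EAE libraries and between 26031889 and 34184576 in the PBS libraries. The libraries did not fall into even groups. Likeness was measured as the median over mRNAs of the squared difference between libraries, relative to counting noise, which alone gives 1. This ratio was 3.12 to 4.21 between libraries of the same group among EAE 6, 7 and 8 and among PBS 5, 7 and 8, and 6.48 to 28.9 for all other pairs within a group. Between the triplets, from EAE 6, 7 or 8 to PBS 5, 7 or 8, it was 7.21 to 14.2, while EAE 4 and PBS 4 were at 5.56. The libraries of the triplets were thus less alike across groups than within them. Neither the labels nor the methods name a batch, and values are also given within these 6 libraries and within the other 5 of each group. Because the triplets were picked for a small spread within each group, a test within them has a small error by construction, and 24.1% of all mRNAs were called there against 0.0745% within the other 10. Their log2 fold changes are therefore given as a description, without a p. The other 10 libraries, a model term for the sets and an interaction with them rest on the same pick, so their p-values are descriptive as well. The levels of cell type markers went against the label of sorted microglia. The 14 microglia markers summed to 120 to 194 FPKM, the fragments of an mRNA scaled to its length and to the depth of the library, in EAE mice and 102 to 182 FPKM in PBS-treated mice. In comparison, 10 neuron markers summed to 1003 to 1174 FPKM and 1142 to 1250 FPKM, and 9 astrocyte markers to 1180 to 1797 FPKM and 1371 to 1624 FPKM. Because the libraries are bulk RNA, fewer cells of a type and less RNA per cell cannot be told apart.

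Differences between EAE and PBS-treated mice were tested with edgeR's quasi-likelihood test on the counts of 17885 mRNAs, and an mRNA was called at a Benjamini-Hochberg adjusted p under 0.05. Of the 9 complement genes, 0 were called, whereas 2.42% of all tested mRNAs were (0.660% higher and 1.76% lower in EAE mice). With the further limit of an absolute log2 fold change (log2FC) over 1, 0.117% of all mRNAs were called and again 0 of the 9. An unadjusted edgeR p under 0.05 was reached by 3 of the 9, C3ar1, C3 and C4b, against 17.4% of all mRNAs. The log2FC was above 0 for all 9, as it was for 52.7% of all mRNAs, and its median over the 9 was 0.18. In DESeq2, 1 of the 9 was called, C3ar1, against 5.03% of all mRNAs. An exact permutation test of the FPKM over all 12870 divisions of the mice into groups of 8 called 0 of the 9 and 0 of all 17885 mRNAs after adjustment, with an unadjusted p under 0.05 for 3 of the 9 (C3ar1, C4b and C3) and for 3298 of all mRNAs. In limma on log2(FPKM + 0.1), 0 of the 9 were called, and of all 17885 mRNAs 132 were called higher and 73 lower.

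**Figure D1:**
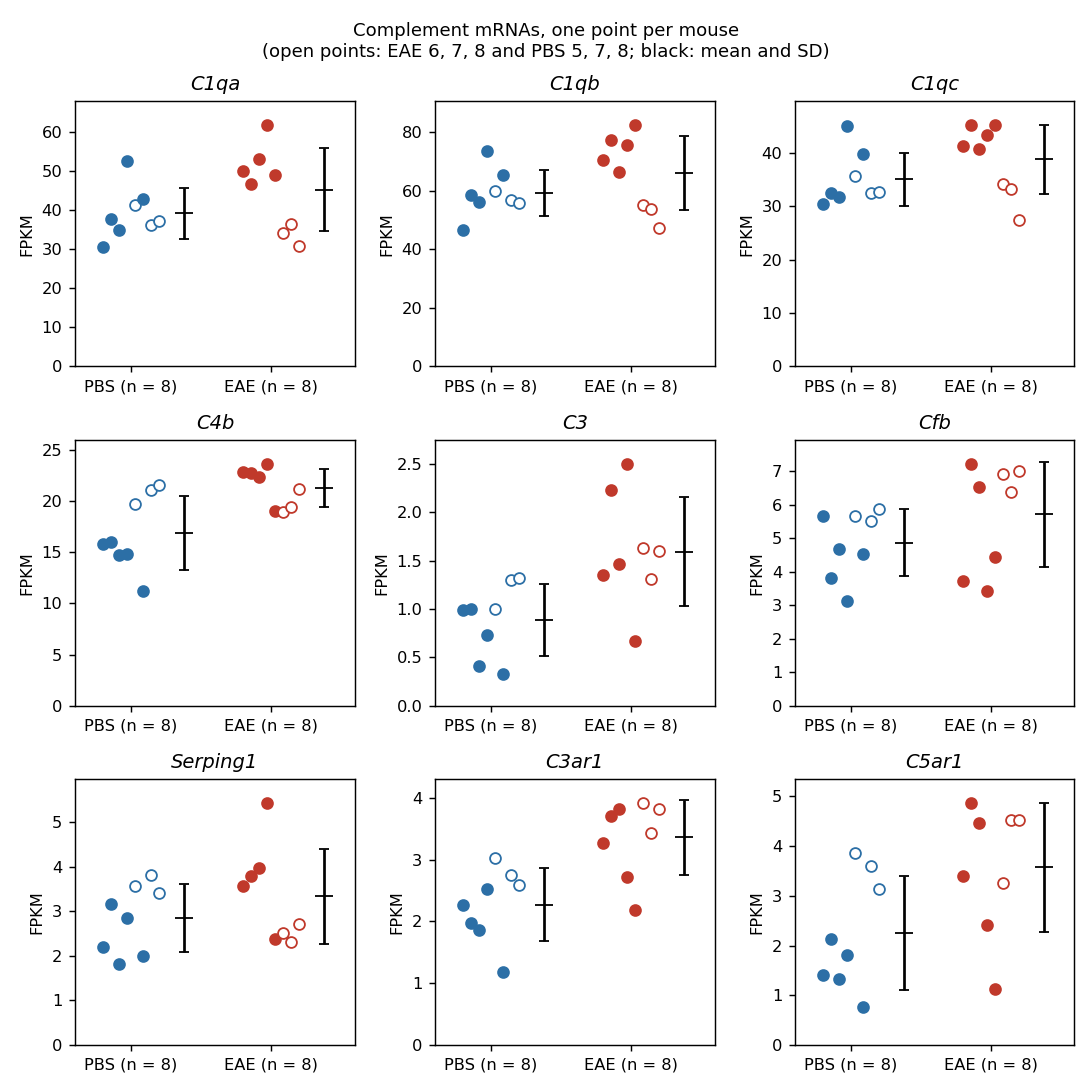
FPKM of the 9 complement mRNAs in each mouse of the PBS and EAE groups, with the mean and SD (n = 8) in black and the 6 triplet libraries as open points. The open EAE points of the C1q chains and Serping1 lie below most other EAE points, whereas 6 of 8 EAE values of C3ar1 lie above every PBS value.

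The 3 chains of C1q were the most abundant of the 9 mRNAs, and their levels overlapped widely between the groups. C1qa, the A chain, ranged from 30.9 FPKM (EAE 8) to 61.8 FPKM (EAE 4) in EAE mice with a median of 47.8, and from 30.6 to 52.5 FPKM in PBS-treated mice with a median of 37.5. Only 2 EAE mice were above every PBS-treated mouse, and 1 PBS-treated mouse was below every EAE mouse. The means were 45.3 ± 10.6 (SD, n = 8) and 39.2 ± 6.58 FPKM, and the log2FC was 0.16 (SE 0.12, 95% interval −0.10 to 0.41, edgeR adjusted p = 0.551). C1qb, the B chain, was at 47.2 to 82.5 FPKM in EAE mice (median 68.4) and at 46.7 to 73.5 FPKM in PBS-treated mice (median 57.7). Its lowest values were those of EAE 8 and PBS 1, and 3 EAE mice exceeded the PBS range. Its log2FC was 0.11 (SE 0.10, 95% interval −0.10 to 0.32, edgeR adjusted p = 0.634). C1qc, the C chain, was at 27.5 to 45.2 FPKM in EAE mice (median 41.0) and 30.4 to 45.0 FPKM in PBS-treated mice (median 32.6), and its log2FC was 0.097 (SE 0.097, 95% interval −0.10 to 0.30, edgeR adjusted p = 0.651). Single libraries moved these small differences by over 1.5 times. The log2FC of C1qa was 0.084 without EAE 4, that of C1qb was 0.055 without EAE 5 and 0.063 without PBS 1, and that of C1qc was 0.063 without EAE 5, 0.15 without EAE 8 and 0.16 without PBS 4. EAE 8 had the lowest value of all 3 chains within the EAE group, and PBS 1 within the PBS group.

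The proportions of the chains were steadier than their levels. The FPKM ratio of C1qb to C1qc was 1.70 ± 0.0718 for EAE mice and 1.69 ± 0.0859 for PBS-treated mice (SD, n = 8 each). The ratio of C1qb to C1qa was 1.48 ± 0.176 and 1.52 ± 0.0662, respectively. C1qb was above C1qa and C1qa above C1qc in each of the 16 libraries.

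The C1q chains separated by library within the EAE group. In EAE 6, 7 and 8, C1qa was at 33.9 ± 2.77 FPKM (SD, n = 3), and in EAE 1 to 5 it was at 52.2 ± 5.90 FPKM (SD, n = 5). In PBS 5, 7 and 8 it was at 38.2 ± 2.77 FPKM and in the other 5 PBS libraries at 39.7 ± 8.42 FPKM. Within the triplets the log2FC was −0.20 for C1qa, −0.17 for C1qb and −0.11 for C1qc. Within the other 10 libraries the log2FC was positive for all 3 chains and called for none. The difference between both sets of libraries, tested as an interaction in edgeR, was −0.53 for C1qa (SE 0.18, adjusted p = 0.414), −0.42 for C1qb (SE 0.15, adjusted p = 0.465) and −0.32 for C1qc (SE 0.15, adjusted p = 0.620), and thus passed for none.

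Downstream of C1q, C4b and C3 had higher means in EAE mice, with differences that did not pass adjustment over all mRNAs. C4b, which encodes complement C4, was at 18.9 to 23.6 FPKM in EAE mice (median 21.8) and at 11.2 to 21.5 FPKM in PBS-treated mice (median 15.9). Here 4 EAE mice were above every PBS-treated mouse and 5 PBS-treated mice were below every EAE mouse, with the lowest value in PBS 6. The means were 21.3 ± 1.88 (SD, n = 8) and 16.9 ± 3.59 FPKM, and the log2FC was 0.28 (SE 0.10, 95% interval 0.07 to 0.49, edgeR adjusted p = 0.141). The coefficient of variation was 8.84% among EAE mice and 21.3% among PBS-treated mice. Within the triplets, C4b had a log2FC of −0.093. Within the other 10, its log2FC was 0.54 (SE 0.09, edgeR adjusted p = 0.0474), with 22.1 ± 1.77 FPKM in EAE mice and 14.5 ± 1.95 FPKM in PBS-treated mice (SD, n = 5 each). The interaction was −0.64 (SE 0.14), with an unadjusted p of 0.000126 and an adjusted p of 0.0818 from edgeR. C4b was the only one of the 9 called within the other 10 libraries, where 0.0745% of all mRNAs were called. These 10 are what remained after the triplets were picked from these data. The PBS libraries left out, PBS 5, 7 and 8, had the highest C4b of their group (19.7, 21.1 and 21.5 FPKM). The p-values within the 10 and of the interaction are therefore descriptive.

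C4b has a near-identical neighbour, C4a, and reads from stretches that both share may be counted for either gene or for neither. Of the 5773 distinct stretches of 150 bases in the C4b transcripts, the length of 1 read, 432 (7.48%) also occurred in C4a. C4a was at 0.899 ± 0.150 FPKM (SD, n = 8) in EAE mice and 0.844 ± 0.192 FPKM in PBS-treated mice, and C4b was 24.4 ± 5.62 and 20.8 ± 6.49 times as high. With the counts of both genes added, the log2FC was 0.27 (SE 0.10, edgeR adjusted p = 0.141). This sum does not hold reads that were counted for neither gene.

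C3 was the least abundant of the 9. It was at 0.673 to 2.50 FPKM in EAE mice (median 1.53) and at 0.331 to 1.32 FPKM in PBS-treated mice (median 0.994), from 106 to 338 and 48 to 232 counts per library. The values of 6 of 8 EAE mice were above all PBS values, whereas EAE 5, the lowest EAE library, lay within the PBS range. The log2FC was 0.79 (SE 0.26, 95% interval 0.25 to 1.32), or 1.73-fold, with an unadjusted p of 0.00580 and an adjusted p of 0.106 from edgeR. Without EAE 5, the log2FC of C3 was 0.90 and its adjusted p 0.0328 from edgeR. In that fit 2 of the 9 were called, C3 and C3ar1, against 5.05% of all mRNAs. Within the triplets the mean FPKM of C3 was 1.51 ± 0.178 for EAE mice and 1.21 ± 0.177 for PBS-treated mice (SD, n = 3 each). Within the other 10 it was 1.64 ± 0.730 and 0.693 ± 0.314 (SD, n = 5 each). Astrocytes also express C3, and of the 9 astrocyte markers 1 was called, Gfap, which was higher in EAE mice, as were 0.660% of all mRNAs. The list as a whole ran the other way, with a negative log2FC for 7 of the 9 markers and a median of −0.20. The r of C3 with the astrocyte list over the 16 libraries was −0.30 (adjusted permutation p = 0.559), and the rho was 0.10 (adjusted permutation p = 0.848). Without EAE 5 and PBS 6 the r was 0.053, so its sign was not stable. A part of other cells in the C3 level was not tested further.

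Cfb and Serping1 differed less between the groups than among the mice. Cfb, the factor B of the alternative pathway, was at 3.44 to 7.21 FPKM in EAE mice (median 6.46) and 3.13 to 5.86 FPKM in PBS-treated mice (median 5.11). In the EAE group, EAE 1, 4 and 5 lay at 3.44 to 4.45 FPKM and the remaining 5 mice lay above every PBS-treated mouse. The log2FC was 0.18 (SE 0.16, 95% interval −0.15 to 0.51, edgeR adjusted p = 0.593), and it was 0.11 without PBS 4. Cfb overlaps the read-through gene Gm20547, which is not among the mRNAs of the tables used here.

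Serping1, the C1 inhibitor, was at 2.31 to 5.42 FPKM in EAE mice (median 3.14) and 1.82 to 3.82 FPKM in PBS-treated mice (median 3.01). EAE 4 was the highest, and it and EAE 3 were the only EAE mice above the PBS range. Its log2FC was 0.16 (SE 0.19, 95% interval −0.22 to 0.55, edgeR adjusted p = 0.703), and it was 0.032 without EAE 4, 0.095 without PBS 3 and 0.097 without PBS 6. Serping1 had the largest interaction of the 9 with the library sets. In the triplets, it was at 2.51 ± 0.195 FPKM in EAE mice and 3.60 ± 0.200 FPKM in PBS-treated mice (SD, n = 3 each), with a log2FC of −0.55. In the other 10, it was at 3.83 ± 1.09 and 2.40 ± 0.578 FPKM (SD, n = 5 each), and the log2FC from the interaction fit was 0.60 (SE 0.19). The interaction of −1.15 (SE 0.31) had an unadjusted p of 0.00117 and an adjusted p of 0.230 from edgeR.

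The receptors of the released peptides gave the smallest p-value among the 9. C3ar1, the C3a receptor, was at 2.19 to 3.91 FPKM in EAE mice (median 3.57) and at 1.19 to 3.03 FPKM in PBS-treated mice (median 2.39). Except for EAE 4 and EAE 5, at 2.72 and 2.19 FPKM, every EAE mouse was above every PBS-treated mouse. The means were 3.36 ± 0.612 (SD, n = 8) and 2.27 ± 0.586 FPKM. The log2FC was 0.51 (SE 0.15, 95% interval 0.20 to 0.83), or 1.42-fold, with an unadjusted p of 0.00289 and an adjusted p of 0.0757 from edgeR. In DESeq2 the log2FC was 0.51 and the adjusted p 0.0230. The exact permutation test of the FPKM gave p = 0.00373, or 0.107 after adjustment, where 0.000155 is the smallest p the design allows. C3ar1 was higher in EAE mice within both sets of libraries. In the triplets its log2FC was 0.38. In the other 10 its log2FC was 0.61 (SE 0.17) in the interaction fit, and it was not called. With a term for the sets in the edgeR model, C3ar1 was the only one of the 9 called (log2FC 0.52, SE 0.13, adjusted p = 0.0242), against 4.29% of all mRNAs. The sets were picked from these same libraries, so this call is descriptive. C3ar1 was also called without EAE 4 (1 of the 9, against 7.38% of all mRNAs) and without EAE 5, the libraries in which it was lowest among the EAE mice.

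C5ar1, the C5a receptor, varied most among mice. It was at 1.13 to 4.86 FPKM in EAE mice (median 3.93) and at 0.768 to 3.87 FPKM in PBS-treated mice (median 1.97), with coefficients of variation of 36.2% and 50.9%. The lowest values were those of EAE 5 and PBS 6, as for C3 and C3ar1. The log2FC was 0.60 (SE 0.29, 95% interval −0.00044 to 1.21, edgeR adjusted p = 0.287), or 1.52-fold. Within the triplets, the means were 4.10 ± 0.733 and 3.53 ± 0.374 FPKM (SD, n = 3 each). In the other 10, they were 3.25 ± 1.52 and 1.48 ± 0.515 FPKM (SD, n = 5 each). Neutrophils carry C5a receptors as well. All 10 neutrophil markers had a positive log2FC (52.7% of all mRNAs did), 4 were called higher (0.660% of all mRNAs were), and their FPKM summed to between 23.0 and 63.9 in EAE mice and to between 9.58 and 24.2 in PBS-treated mice. Over the 16 libraries with group means removed, the r of C5ar1 with the neutrophil list was 0.25 (adjusted permutation p = 0.708). A gate at intermediate CD45 is meant to leave neutrophils out, and their part in the C5ar1 level was not tested.

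**Figure D2:**
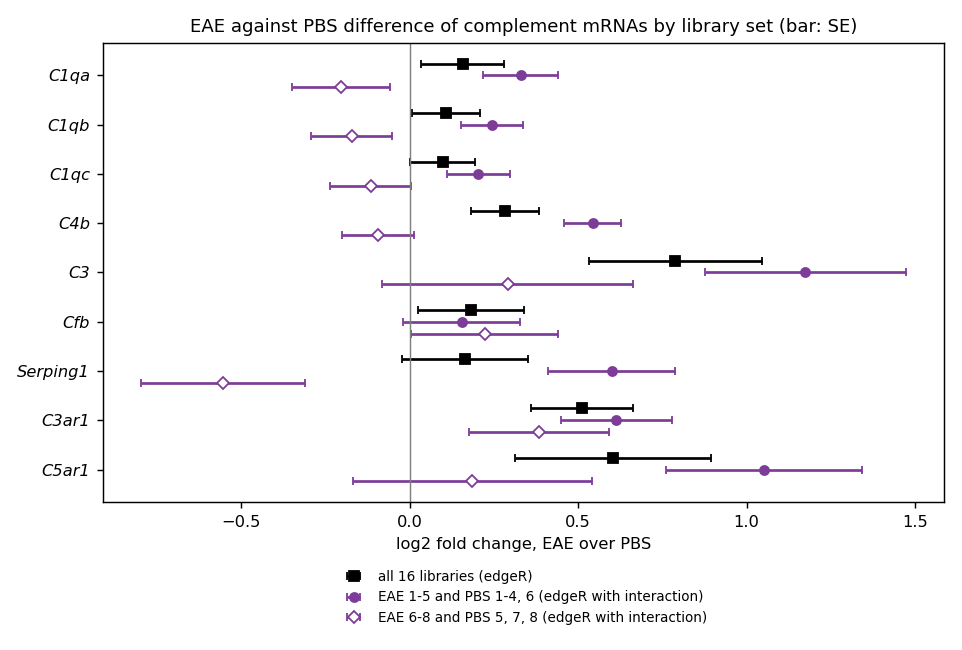
The log2 fold change of EAE over PBS for the 9 complement mRNAs, with its SE, over all 16 libraries (squares), within EAE 1 to 5 and PBS 1 to 4 and 6 (filled circles) and within EAE 6 to 8 and PBS 5, 7 and 8 (open diamonds). The diamonds of the C1q chains, C4b and Serping1 lie below 0, whereas C3, Cfb, C3ar1 and C5ar1 lie above 0 in both sets.

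Of the 9, 5 had a log2FC below 0 within the triplets, C1qa, C1qb, C1qc, C4b and Serping1, as did 22.0% of the mRNAs that were above 0 over all 16 libraries. None of the 9 had an interaction with an adjusted p under 0.05, which 0.0615% of all mRNAs had. The unadjusted interaction p was under 0.05 for C4b, Serping1, C1qa, C1qb and C1qc, 5 of the 9, and for 8.03% of all mRNAs. As the sets were picked from these data, these p-values are descriptive.

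FPKM is a value per length, so that levels can be set against each other between genes. In EAE mice the order of mean FPKM was C1qb, C1qa, C1qc, C4b, Cfb, C5ar1, C3ar1, Serping1 and C3. The order in PBS-treated mice was C1qb, C1qa, C1qc, C4b, Cfb, Serping1, C3ar1, C5ar1 and C3. Each gene was tested against the next in its group, in an exact two-sided sign permutation test of the paired log2 FPKM. Of the 16 neighbour pairs, 13 differed at an adjusted p under 0.05, with 0.00781 as the smallest unadjusted p that 8 mice allow. The order that set the pairs came from the same libraries, so these p-values are descriptive. In EAE mice, C3ar1 did not differ beyond the spread from C5ar1 or from Serping1 (exact adjusted p = 0.969 and 0.883). C5ar1 and Serping1 were not tested as a pair there. In PBS-treated mice, C3ar1 and C5ar1 did not differ beyond their spread (exact adjusted p = 0.446).

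To ask which complement genes varied together from mouse to mouse, group means were removed from the log2 CPM (counts scaled to library size, with TMM normalization) and the 36 pairs were correlated over the 16 libraries. An adjusted permutation p under 0.05 was found for the Pearson r of 14 pairs, 11 positive and 3 negative, and for 8 of these also for Spearman's rho. The positive pairs that passed linked the C1q chains with each other and, separately, C3 and C4b with each other, with Serping1 and with the receptors, and the receptors with each other. Serping1 did not pass with C3ar1 (r = 0.41, adjusted permutation p = 0.227) or with C5ar1 (r = 0.54, adjusted permutation p = 0.0994). C1qb and C1qc had an r of 0.96 and a rho of 0.97 (adjusted permutation p = 0.000240 and 0.000360), and the r was 0.95 without EAE 8 and PBS 1, the libraries farthest from the median. C1qa had an r of 0.90 with C1qc and of 0.89 with C1qb. With the means of the library sets removed as well, the 3 values were 0.92, 0.79 and 0.75.

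C3ar1 and C5ar1 had an r of 0.90 and a rho of 0.80 (adjusted permutation p = 0.000240 and 0.00499), 0.78 without EAE 5 and PBS 6, and 0.84 with set means removed. C3 and C4b had an r of 0.80 (rho 0.78, adjusted permutation p = 0.000504 and 0.00499) and 0.69 without EAE 5 and PBS 6. C4b and Serping1 had an r of 0.76 (rho 0.85, adjusted permutation p = 0.00144 and 0.00261), and C3 and Serping1 one of 0.76 (rho 0.81, adjusted permutation p = 0.00401 and 0.00360). The r of C4b with C5ar1 was 0.75 (rho 0.77), and it was 0.34 within the EAE group and 0.95 within the PBS group. By contrast, the relations of C3 with the receptors rested on EAE 5 and PBS 6. Without them the r of C3 with C3ar1 went from 0.72 to 0.27, and with C5ar1 from 0.75 to 0.41. The r of C4b with C3ar1 likewise went from 0.70 to 0.43 without PBS 6 and PBS 8.

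**Figure D3:**
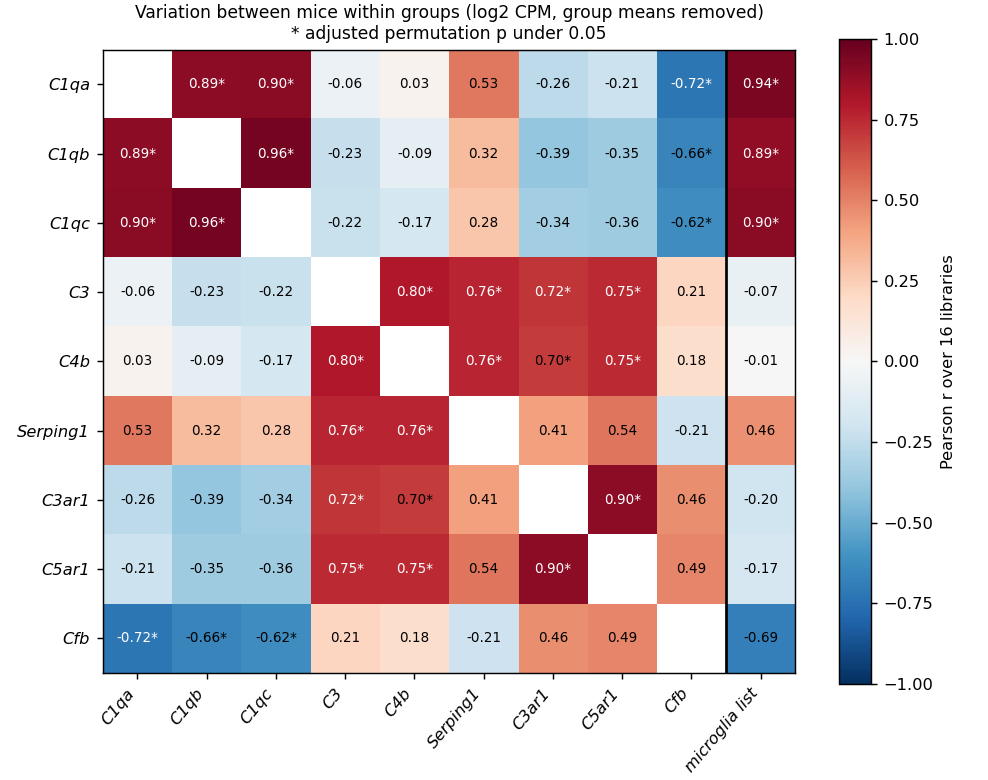
Pearson r over the 16 libraries, with group means removed, for each pair of the 9 complement mRNAs and for each mRNA with the mean log2 CPM of 14 microglia markers (last column). Asterisks mark an adjusted permutation p under 0.05, and the C1q block at the upper left has an r of 0.89 to 0.96, whereas Cfb runs against it at −0.72 to −0.62.

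Cfb had a negative r with each C1q chain, at −0.72 with C1qa, −0.66 with C1qb and −0.62 with C1qc (adjusted permutation p = 0.0167, 0.0338 and 0.0476). The corresponding rho was −0.62, −0.57 and −0.49 (adjusted permutation p = 0.0717, 0.101 and 0.162), which did not pass. With set means removed the r was −0.66, −0.52 and −0.41, and without the 2 libraries farthest from the median −0.61, −0.64 and −0.47. On log2(FPKM + 0.1) the r passed with C1qa only (adjusted permutation p = 0.0261, 0.0562 and 0.0892). EAE 4 and PBS 4, the libraries with the highest C1qa, had the lowest Cfb of their groups.

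The C1q chains followed the microglia markers. With the mean log2 CPM of the 14 markers, C1qa had an r of 0.94 (rho 0.93), C1qb of 0.89 (rho 0.88) and C1qc of 0.90 (rho 0.91). The adjusted permutation p-values of r, over 36 relations of the 9 genes with the microglia, astrocyte, endothelial and neutrophil lists, were 0.000360, 0.00144 and 0.000540. Without the 2 libraries farthest from the median, the r was 0.95, 0.87 and 0.90, and with set means removed it was 0.89, 0.77 and 0.80. None of the other 33 relations had an adjusted permutation p under 0.05. Cfb had an r of −0.69 with the microglia list (rho −0.48, adjusted permutation p = 0.0580), or −0.46 without EAE 4 and PBS 4. Serping1 had an r of 0.46 (adjusted permutation p = 0.265), and the r was −0.071 for C3, −0.0062 for C4b, −0.20 for C3ar1 and −0.17 for C5ar1. Between the groups, 1 of the 14 microglia markers was called, Trem2, higher in EAE mice, and 12 of the 14 had a positive log2FC, against 0.660% and 52.7% of all mRNAs, with a median over the 14 of 0.16. How far the microglia content of a library sets the C1q level was not tested.

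**Figure D4:**
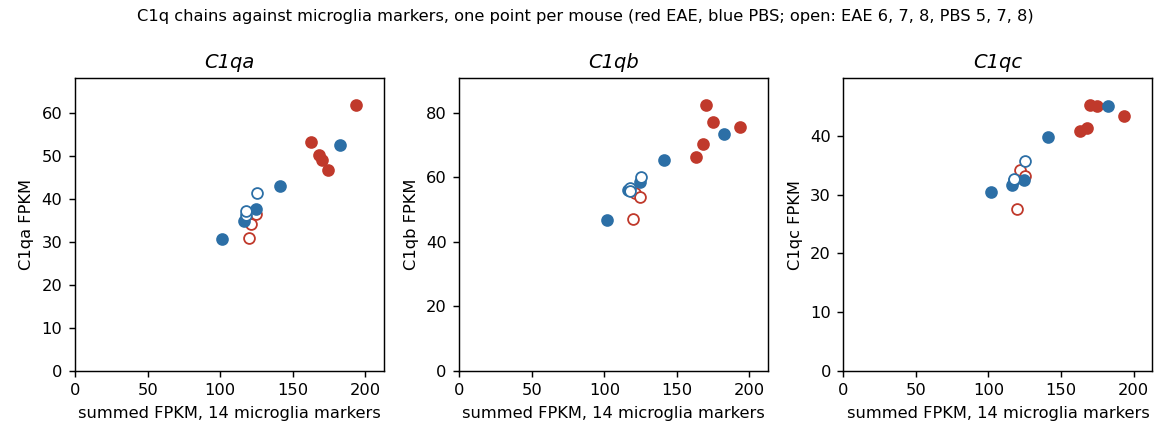
FPKM of C1qa, C1qb and C1qc in each library against the summed FPKM of 14 microglia markers, with EAE in red, PBS in blue and the 6 triplet libraries as open points. EAE 1 to 5 and PBS 4 lie at the upper right, and EAE 6, 7 and 8 lie among the remaining PBS libraries, except that C1qc in EAE 8 (27.5 FPKM) lies below all of them.

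The mRNAs most like each complement gene over the 16 libraries, by Pearson r with group means removed among 14850 other mRNAs, are given as a description. For C1qb they were Ctss (r = 0.97), C1qc (0.96) and Csf1r (0.96), and for C1qc they included C1qb (0.96) and Inpp5d (0.93). C1qa was closest to Olfml3 (r = 0.94), Tgfbr1 (0.91) and Parvg (0.91). Csf1r and Olfml3 are in the microglia list. C4b was closest to Vim (r = 0.97), Lbp (0.91) and C530008M17Rik (0.88), and Serping1 to Rbmx (0.90), Lbp (0.85) and Nxph1 (0.85). C3 was closest to Ifnar1 (r = 0.91), Kcnk12 (0.87) and Ntn4 (0.85). C3ar1 was closest to Gm42226 (r = 0.96), Ccl12 (0.94) and Nr3c2 (0.93), and C5ar1 to Afap1 (0.94), Msr1 (0.92) and Ccl12 (0.90). Cfb was closest to Txlna (r = 0.94), Ecm1 (0.93) and Nudt8 (0.93).

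Beyond the 9, 58 further complement genes were listed by pathway, of which 49 were tested and 4 were called in edgeR, against 2.42% of all mRNAs. Of the 4, 1 was higher and 3 were lower in EAE mice, against 0.660% and 1.76% of all mRNAs. Itgam, the alpha chain of complement receptor 3 that binds C3 fragments, was at 7.39 to 9.61 FPKM in EAE mice (median 8.17) and at 4.94 to 6.56 FPKM in PBS-treated mice (median 5.79). Every EAE mouse was above every PBS-treated mouse, which held for 0.162% of all mRNAs. Its log2FC was 0.46 (SE 0.07, edgeR adjusted p = 0.00180), and it was called in all 16 fits with 1 library left out. Within the other 10 libraries its log2FC was 0.51 with an adjusted p of 0.0637 from edgeR. Itgam encodes CD11b, the surface protein on which the cells were gated. Itgb2, the beta chain of the same receptor, had a log2FC of 0.064 (SE 0.068, edgeR adjusted p = 0.677). In the receptor list 1 of 9 tested genes was called, higher as were 0.660% of all mRNAs, with a median log2FC of 0.064. Cd93 had a log2FC of 0.62 (edgeR adjusted p = 0.0785). Calr and Lrp1, at smaller p-values, went the other way, with log2FCs of −0.26 and −0.13 (edgeR adjusted p = 0.0507 and 0.0583). Both were called in DESeq2, as were 5.03% of all mRNAs.

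Of 14 membrane regulators, 2 were called and both were lower in EAE mice, as were 1.76% of all mRNAs. Sez6 and Sez6l2 encode neuronal membrane proteins with domains of the complement regulator type. Sez6 was at 52.2 to 60.8 FPKM in EAE mice (median 58.3) and 61.5 to 76.6 FPKM in PBS-treated mice (median 68.8). The groups did not overlap, and 0.101% of all mRNAs were lower in every EAE mouse than in any PBS-treated mouse. The log2FC of Sez6 was −0.30 (SE 0.05, edgeR adjusted p = 0.00717). Sez6l2 was at 108 ± 9.92 FPKM (SD, n = 8) in EAE mice and 127 ± 4.28 FPKM in PBS-treated mice, which gave a log2FC of −0.28 (SE 0.05, edgeR adjusted p = 0.00898). Both were called in all 16 fits with 1 library left out. Within the other 10 libraries Sez6 had an adjusted p of 0.139 from edgeR. Sez6l2 was called there (log2FC −0.37, edgeR adjusted p = 0.0415), as were 0.0745% of all mRNAs. Of the 10 neuron markers, 9 had a negative log2FC and 2 were called lower, Syt1 and Gad1 (1.76% of all mRNAs were), and the part of this in the lower Sez6 and Sez6l2 was not tested.

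**Figure D5:**
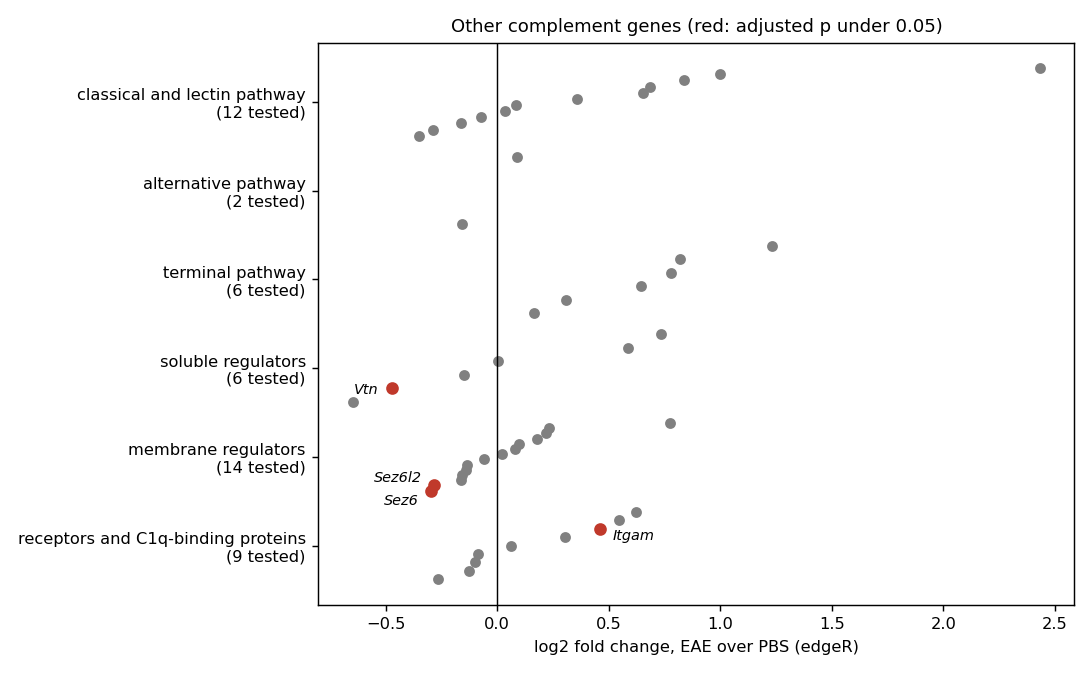
The log2 fold change of EAE over PBS for 49 further complement genes by pathway list, each point 1 gene, with genes at an adjusted edgeR p under 0.05 in red. Itgam is called to the right of 0, Vtn, Sez6 and Sez6l2 to the left, and all 6 terminal pathway genes lie to the right of 0 without a call, where 52.7% of all mRNAs lie.

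Among soluble regulators, 1 of 6 tested was called, lower in EAE mice as were 1.76% of all mRNAs. Vtn, vitronectin, which binds the terminal complex, was at 15.1 ± 3.73 FPKM (SD, n = 8) in EAE mice and 20.2 ± 2.91 FPKM in PBS-treated mice, which gave a log2FC of −0.47 (SE 0.12, edgeR adjusted p = 0.0400). EAE 4, at 23.1 FPKM, was above every PBS-treated mouse, and 5 EAE mice were below all of them. Vtn was called in 4 of the 16 fits with 1 library left out, at a log2FC of −0.58 to −0.43 over all 16 fits. Its log2FC was −0.82 within the triplets and −0.28 within the other 10 (edgeR adjusted p = 0.580). With upper quartile normalization and with robust estimation it was not called by edgeR (adjusted p = 0.0567 and 0.05004), nor was it in limma on log2(FPKM + 0.1) or log2(FPKM + 1) (adjusted p = 0.0757 and 0.0779). Vtn is also in the list of 9 mural and fibroblast markers.

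In the classical and lectin pathway list, 0 of 12 tested genes were called in edgeR and 2 had an unadjusted p under 0.05, against 17.4% of all mRNAs, and the smallest p was that of C1s1, a C1 protease. C1s1 was at 0.527 ± 0.0936 FPKM (SD, n = 8) in EAE mice and 0.315 ± 0.104 FPKM in PBS-treated mice, which gave a log2FC of 0.69 (SE 0.21, edgeR adjusted p = 0.0876). In DESeq2, C1s1 was called. C2, which neighbours Cfb, had a log2FC of −0.29 (edgeR adjusted p = 0.291). In the alternative pathway list 0 of 2 were called and 0 had an unadjusted p under 0.05, and Cfp, properdin, had a log2FC of 0.089 (edgeR adjusted p = 0.610). DESeq2 called 0 genes of the alternative and 0 of the terminal pathway list. In the terminal pathway list 0 of 6 tested genes were called in edgeR and 3 had an unadjusted p under 0.05, against 17.4% of all mRNAs. All 6 had a log2FC above 0, against 52.7%, and the median log2FC was 0.71, against 0.0092 over all mRNAs. Most of the list was low: Hc, C6, C8a and C8b had mean levels from 0.049 (C6, PBS) to 0.65 FPKM (C8b, EAE). C8g, the most abundant of the 6, was at 4.09 ± 0.811 FPKM in EAE mice and 3.54 ± 0.837 FPKM in PBS-treated mice (SD, n = 8 each). Its log2FC was 0.16 (SE 0.15, edgeR adjusted p = 0.625). C7 had the smallest p there, with 0.836 ± 0.248 FPKM in EAE mice, 0.514 ± 0.126 FPKM in PBS-treated mice and a log2FC of 0.64 (SE 0.21, edgeR adjusted p = 0.108).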

How the data were processed

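Stranded total RNA libraries depleted of ribosomal RNA were sequenced from 8 EAE and 8 PBS-treated mice, 1 library per mouse. The authors aligned filtered reads to GRCm38 with HISAT2 2.1.0, counted them with HTSeq 0.11.2 (per the submitters' processing notes) and deposited raw counts for 21878 mRNAs. The authors also deposited FPKM values for the same mRNAs. Over 8642 mRNAs the FPKM values followed the counts divided by library totals, so the FPKM carry no further normalization. The strand setting of the counting is not given in the sources used here. The tables held 0 unused columns of per-sample values.

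Groups were taken from the titles in the labels. The 17885 mRNAs that summed to 16 counts or more over all libraries were tested with edgeR 4.0.16 (quasi-likelihood, TMM, no covariate) and Benjamini-Hochberg adjustment, after the code was tested on simulated data. Intervals are 95% confidence intervals of the log2FC, built from its edgeR SE. DESeq2 1.42.0, limma 3.58.1 on log2(FPKM + 0.1) and on log2(FPKM + 1), other normalizations and filters, a replicate block, library sets and leaving out each library were alternatives. Exact permutation tests used all divisions of the 16 libraries, and correlations used log2 CPM (prior count 2) with 100000 permutations within groups (Python 3.11.15, scipy 1.17.1). Level order used log2(FPKM + 0.01).

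Named genes were the 9 complement genes, each pathway list's called genes and its gene with the smallest p, and for each of the 9 the 3 most alike mRNAs with a mean of at least 1 CPM, of which 1 is not reported here. Itgb2, Cd93, Calr, Lrp1, C2, C4a, Hc, C6, C8a, C8b and C8g were named after their values were seen. The interaction, the sum of C4a and C4b, the removal of set means and the relations with marker lists were added after seeing the data. The members, lists, library sets and motifs were chosen with earlier results of these data known. Sequences and positions are from RefSeq (GRCm38.p6) and GENCODE on GRCm38.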

Additional observations from a re-analysis of the deposited data

Results flagged for a closer look

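Of 32 sets of 8 FPKM values checked for the named genes (9 complement genes and 7 others, in EAE and PBS-treated mice), 1 held a library far from the others by Dixon's test. Sez6 in EAE 5 was at 52.2 FPKM, and its gap to the next EAE library made up 0.574 of the range of the group. Chance marks about 1 in 20 such sets. Without EAE 5, Sez6 was still called lower in EAE mice by edgeR.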

How the results depend on the processing

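Over the settings that kept all 16 libraries, the log2FC of each of the 9 complement genes stayed above 0, and no scaling moved the median of all mRNAs by over 0.1. The number of the 9 called was 0, except for 1 (C3ar1) in DESeq2 and with a term for the library sets. These settings called 5.03% and 4.29% of all mRNAs. The number was 4 within EAE 6, 7, 8 and PBS 5, 7, 8, where 24.1% of all mRNAs were called. These 6 libraries were picked for a small spread within each group, so that the error is small by construction. Within the other 10 libraries the number was 1, where 0.0745% of all mRNAs were called. The log2FC within the 6 libraries was −0.20 for C1qa, −0.17 for C1qb, −0.11 for C1qc, −0.093 for C4b and −0.55 for Serping1, each reversed. Other complement genes called numbered 8 in DESeq2 (5.03% of all mRNAs were) and 8 with the set term (4.29%). They numbered 20 within the 6 libraries (24.1% of all mRNAs) and 1 within the other 10 (0.0745%). Over all mRNAs, 118 were called higher and 315 lower. The lower calls were 187 with upper quartile normalization, and 73 and 80 in limma on log2(FPKM + 0.1) and log2(FPKM + 1). DESeq2 gave 297 higher and 602 lower, the set term 242 and 526, the 6 libraries 1896 and 2251, and the other 10 gave 8 and 5. Leaving out 1 library at a time gave 39 to 502 higher and 104 to 815 lower calls, both most without EAE 4, 0 to 2 of the 9 complement genes and 3 to 8 of the others. Leaving out EAE 5 and PBS 6 together, chosen after seeing the data, gave 281 and 572 calls and 2 of the 9, C3 and C3ar1. The causes were not tested.

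With the replicate number of the labels as a block, 150 mRNAs were higher and 367 lower, and 0 of the 9 and 6 of the other complement genes were called. The correlation of same-numbered libraries was over 0.1 in 3 of 8 numbers, and 2 of 8 matched their own number best, so the numbers were not treated as pairs. On log2(FPKM + 0.1), 12 of the 36 pairs passed in place of 14, and 12 were shared. The pairs lost were those of Cfb with C1qb and with C1qc. The lowest counts among the 9, 48 for C3 in PBS 6 and 55 for C5ar1, limit the precision for those genes.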
